A study of Zea mays with 21 samples.

Results

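The genes described here are the 150 IDs most raised in the white leaf section of the zebra-leaf maize mutant zb10, out of 50142 IDs in the deposited count table. They were chosen on the young leaf alone. Counts were divided by library size (counts per 1000000 counts of the library, CPM), and each ID was scored by the smaller of 2 log2 ratios, white section over wild-type (WT) leaf and white section over green section, with 1 CPM added to every group mean. The 150 highest scores, from 6.77 down to 2.18, made the list. Because these values chose the members, the young-leaf differences are a description. Call counts from young leaf, printed beside their background, are no evidence about the members. The tests to read are those in older leaf and endosperm, which had no part in the choice.

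The study compared WT maize with zb10, which the series title names as a loss of function in ZmPTOX, in 21 libraries that form 7 groups of 3. Young leaf (V4, the stage of the 4th leaf) gave 3 groups: WT, zb10 white section and zb10 green section. Older leaf (V9, that of the 9th leaf) gave a WT and a zb10 group with no section named, and endosperm taken 16 days after pollination gave one group per genotype. The series calls the replicates biological. The sources used here do not state how many plants made a library, the growth light, or whether both sections came from the same leaves.

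ZmPTOX is the plastid terminal oxidase, an enzyme of the thylakoid that passes electrons from plastoquinol to oxygen and so supplies oxidised plastoquinone for carotenoid desaturation. Carotenoids protect chlorophyll from photo-oxidation. In Arabidopsis, loss of the orthologous enzyme in the immutans mutant gives leaves with green sectors of normal chloroplasts and white sectors whose plastids lack pigment and internal membranes. No file gives names for the IDs, and the reference gene table matched 0 of the 50142, so members carry no name or role below and the mutated gene was not analysed here. Members are described by where else in the plant their transcripts were counted.

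Library totals ran from 28237880 to 53092962 counts, with WT V9 replicate 1 at 123050963. Tissue identity was read from 2257 leaf-enriched and 807 endosperm-enriched IDs (at least 16-fold apart between V9 leaf and endosperm, at least 10 CPM in the higher tissue). Leaf-enriched IDs held 31.6% to 43.9% of counts in the V4 libraries, and endosperm-enriched IDs 0.244% to 0.489%. White section replicate 3 stood apart with the lowest leaf-enriched share, 31.6%, and with 11.9% of its counts in its 50 most abundant IDs, against 17.3% and 17.4% in the other white libraries.

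The members fell into 4 level groups by the tissue in which their mean reached 10 CPM. Over both genotypes, 24 members reached a mean of 10 CPM in V9 leaf and in endosperm, 25 in V9 leaf alone, 18 in endosperm alone and 83 in neither (16%, 16.7%, 12% and 55.3%). Of the 16501 IDs at least as high in the white section as the lowest member, 47.2%, 26.2%, 5.70% and 20.9% fell in these groups. WT and green counts that were low beside the white section at V4 were a condition for membership, so the difference in shares is a description. CPM is not corrected for transcript length, which is not known for these IDs, so this limit sorts IDs by counts and not by molecules. The list holds 137 IDs in the style of the maize reference and 13 whose ID contains newGene. Of these 13, 11 fell in the group with means under 10 CPM in both tissues.

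**Figure D1:**
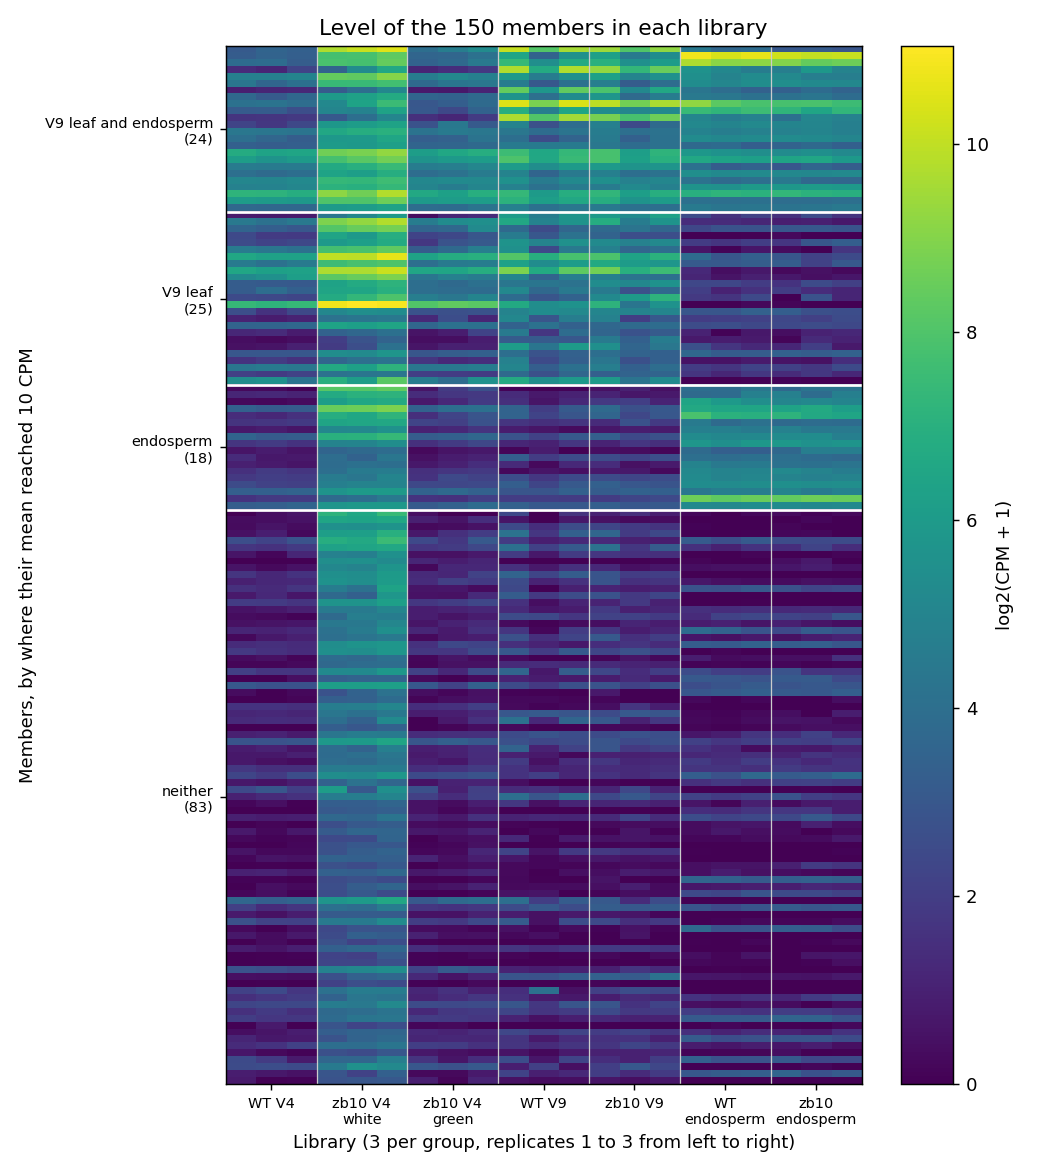
Level of every member, as log2(CPM + 1), in each of the 21 libraries; columns are libraries in 7 groups of 3, rows are members sorted into the 4 level groups and by score within them. The white-section columns stand out from the other V4 columns in every row group, which the choice of members built in. The WT V9 mean is at or above the white-section mean for 10 members, and the WT endosperm mean for 16. Means are under 10 CPM in both V9 leaf and endosperm for 83 members (medians of 1.41 and 0.504 CPM). The remaining 67 reach 10 CPM in V9 leaf, endosperm or both.

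In V9 leaf the mutation did not move the members at a level the test could call. Of the 150, 132 passed the count filter, and 0 of these differed between zb10 and WT in edgeR's quasi-likelihood test with Benjamini-Hochberg adjustment over all 26105 genes tested (lowest member adjusted p = 0.158). The test called 0.046% of all genes (0.0345% higher and 0.0115% lower in zb10). At an unadjusted p under 0.05 there were 11 members, 7 higher and 4 lower in zb10, which is 8.33% of those tested beside 7.01% of all genes. That count and its balance depended on single libraries. Without WT replicate 2 it was 32 (9 higher, 23 lower), or 23.9% of members tested beside 14.8% of all genes. Without zb10 replicate 1 it was 22 (10 higher, 12 lower), or 16.3% beside 9.5% of all genes. With a replicate block it was 26 (8 higher, 18 lower), or 19.7% beside 7.66% of all genes. DESeq2 called 3 members, all higher in zb10, beside 0.636% of all genes (0.249% higher and 0.387% lower). Among the 111 members with a mean of at least 1 CPM over both genotypes, the genotypes' libraries did not overlap for 4 higher and 1 lower in zb10, or 3.6% and 0.901%, beside 10.6% and 3.86% of all IDs at that level.

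The median member had a log2 fold change of -0.08 at V9, with the middle 50% from -0.42 to 0.28, while all genes had a median of -0.01 and ran from -0.21 to 0.19. A change of more than 2-fold was fitted for 15 members, 9 higher and 6 lower, or 11.4% of those tested beside 5.46% of all genes. All genes were not matched to the members by level, so the wider spread is not read as a trait of the members. The 18 untested members were too low in V9 leaf to pass. The members' median turned positive without WT replicate 1, at 0.19, and stayed negative on leaving out each other library, down to -0.25 without zb10 replicate 1.

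The 3 members DESeq2 called at V9 are given with their values; they were chosen after these were seen. Zm00001d049244 was counted at 13.4, 6.59 and 10.1 CPM in WT V9 leaf and at 37.3, 63.2 and 139 CPM in zb10. Every zb10 library was above every WT library, and the zb10 libraries differed widely among themselves. The fitted log2 fold change was 2.96 (SE 0.49, edgeR adjusted p = 0.238; DESeq2 adjusted p = 3.7e-09).

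The same gene was also higher in both zb10 sections at V4, at 25.6, 20.1 and 30.3 CPM in the green and 106, 160 and 252 CPM in the white section, against 4.61, 4.23 and 3.98 CPM in WT. In endosperm it was at 2.56, 2.19 and 4.38 CPM in WT and at 0, 5.85 and 1.24 CPM in zb10, where the groups overlapped. Its zb10 leaf libraries lay above their WT libraries at both stages. The V4 values entered the score that chose this member, so they lend no support to the V9 difference.

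Zm00001d008214 stood at 19.5, 18.9 and 17.0 CPM in WT V9 leaf and at 40.1, 33.5 and 48.6 CPM in zb10. Its log2 fold change was 1.09 (SE 0.16, edgeR adjusted p = 0.158; DESeq2 adjusted p = 5e-05), and it passed in edgeR when all 21 libraries shared the fit (adjusted p = 0.0311). The V9 groups did not overlap. At V4, whose values entered the score, green libraries held 14.8, 12.5 and 15.8 CPM and WT libraries 8.15, 7.72 and 7.49 CPM.

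Zm00001d020976 was at 8.05, 8.10 and 7.11 CPM in WT V9 leaf and at 21.9, 9.54 and 24.2 CPM in zb10 (log2 fold change 1.21, SE 0.32, edgeR adjusted p = 0.548; DESeq2 adjusted p = 0.047). In the V4 white section it was at 3.11, 6.04 and 10.4 CPM, a range that holds its WT V9 values. Over the 12 alternative analyses, adjusted p-values of these 3 members reached 0.836, 0.773 and 1. Without WT replicate 2, edgeR called 1 other member, Zm00001d015091, which was lower in zb10 (log2 fold change -1.55, adjusted p = 0.0133, against up to 1 in other alternatives); with all libraries it was at 121, 25.6 and 90.1 CPM in WT and 39.8, 32.1 and 35.7 CPM in zb10 (log2 fold change -1.15, SE 0.45, adjusted p = 0.669).

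V9 libraries of one genotype differed widely in the members. Their share of all counts was 0.809%, 0.254% and 0.663% in WT replicates 1 to 3 and 0.624%, 0.260% and 0.438% in zb10. Replicate 2 had the lowest share in both genotypes, and the genotypes overlapped. WT replicate 2 was the lowest WT library for 111 of the 144 members with counts there (77.1%), beside 53.3% of the IDs at least as high in the white section as the lowest member (4.46 CPM; 16501 IDs, of which those with V9 counts entered).

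**Figure D2:**
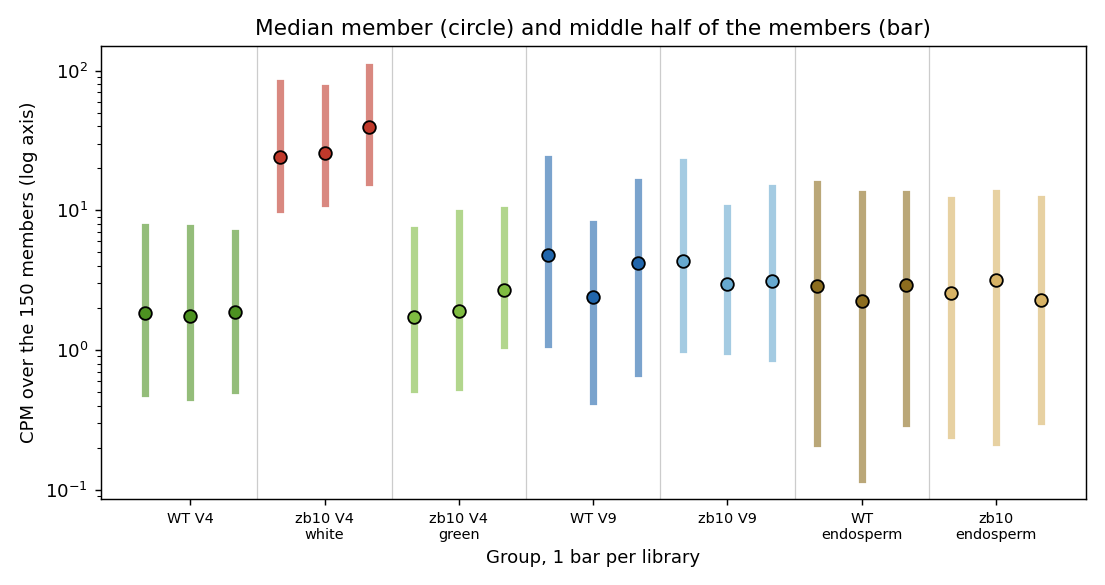
Median CPM over the 150 members (circle) with the lower to upper quartile (bar) in each of the 21 libraries, on a log axis. White-section medians are 24.0, 25.6 and 39.8 CPM, and the other 18 libraries have medians of 1.71 to 4.78 CPM.

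The members that lead the V9 counts show this spread. Zm00001d052194 was at 1081, 272 and 756 CPM in WT V9 leaf and at 682, 267 and 591 CPM in zb10, so the genotypes overlapped and both had their lowest value in replicate 2. At V4 it was at 847, 1108 and 1452 CPM in the white section, 14.8, 24.6 and 39.5 CPM in the green section, and 7.72, 10.6 and 9.35 CPM in WT. Its mean in the V4 white section, 1136 ± 303 CPM (SD, n = 3), thus lay beside 703 ± 407 CPM in WT V9 leaf, a leaf that no label describes as white.

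Zm00001d012420 was at 1414, 453 and 1361 CPM in WT V9 leaf and 997, 415 and 788 CPM in zb10, above its white-section values of 34.6, 83.6 and 183 CPM. Zm00001d038806 was likewise at 815, 267 and 738 CPM in WT V9 leaf against 7.12, 14.95 and 31.8 CPM in the white section. In all, 10 members had a WT V9 mean at or above their V4 white-section mean, or 6.67%, beside 40.9% of the 16501 IDs that were as high in the white section as the lowest member. Raised white values are part of the choice of members, so a low share was built in.

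**Figure D3:**
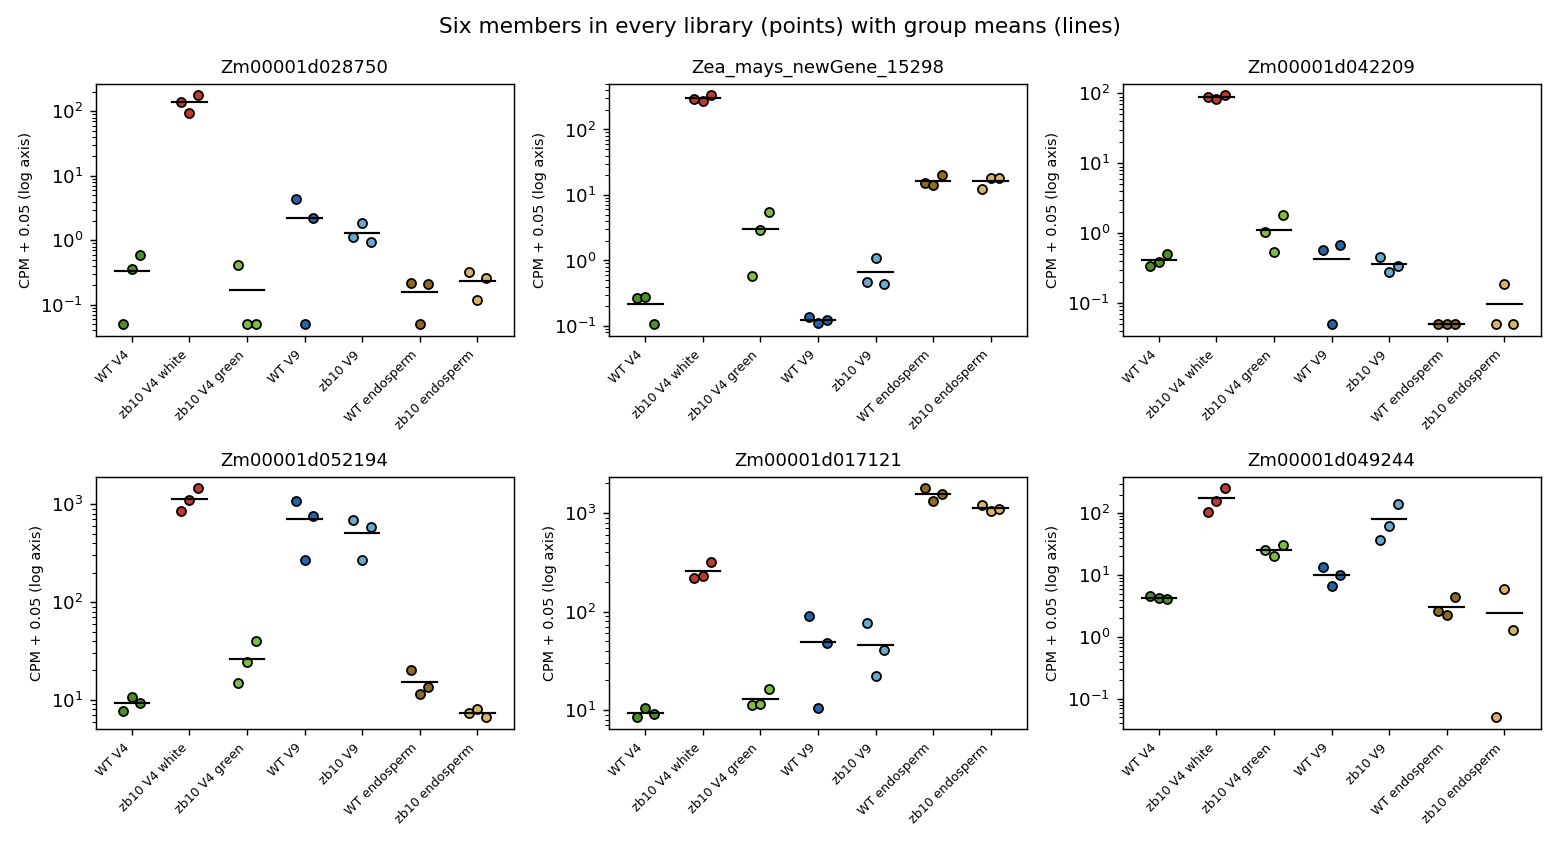
CPM in every library (points, with 0.05 added for the log axis) and group means (lines) for 6 members, by group. The upper row holds the 3 highest scores, the lower row a member also high in V9 leaf, a member highest in endosperm, and a member whose zb10 leaf libraries lie above their WT libraries at both stages. The V4 values entered the score that chose all 6.

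In endosperm the members likewise gave no call. The count filter kept 113 of the 150, and 0 of them differed between zb10 and WT (edgeR quasi-likelihood test, Benjamini-Hochberg over 25366 genes, lowest member adjusted p = 0.445). The test called 0.0355% of all genes (0.0197% higher and 0.0158% lower in zb10). At an unadjusted p under 0.05 there were 16 members, 4 higher and 12 lower in zb10, or 14.2% of those tested beside 5.8% of all genes. That count and its balance depended on the setting. With all 21 libraries in the fit it was 6 of 150 (3 higher, 3 lower), or 4% beside 7.19% of all genes. Without WT replicate 1 it was 10 (3 higher, 7 lower), or 8.55% beside 4.44% of all genes. Without zb10 replicate 1 it was 20 (5 higher, 15 lower), or 17.4% beside 7.77% of all genes. The median member had a log2 fold change of -0.07, beside 0.00 for all genes, and stayed between -0.10 and -0.01 on leaving out each library. DESeq2 called 5 members, 1 higher and 4 lower, beside 0.305% of all genes (0.17% higher and 0.135% lower). Among the 92 members with a mean of at least 1 CPM, libraries did not overlap for 5 higher and 12 lower in zb10, or 5.43% and 13%, beside 5.32% and 5.34% of all IDs at that level.

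The 5 were chosen after their values were seen. Zm00001d017121 was at 1781, 1331 and 1574 CPM in WT endosperm and at 1215, 1053 and 1105 CPM in zb10. The groups did not overlap, and the fold change was small (log2 fold change -0.47, SE 0.12, edgeR adjusted p = 0.666; DESeq2 adjusted p = 0.0054). In V4 leaf it was at 220, 230 and 317 CPM in the white section, 8.39, 10.5 and 9.01 CPM in WT and 11.2, 11.6 and 16.2 CPM in the green section. WT V9 leaf held 90.5, 10.4 and 47.8 CPM, a range that overlaps WT and green leaf at V4.

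Zm00001d051001 was at 813, 553 and 570 CPM in WT endosperm and 507, 349 and 388 CPM in zb10 (log2 fold change -0.63, SE 0.18, edgeR adjusted p = 0.701; DESeq2 adjusted p = 0.02). Zm00001d044874 was at 87.4, 60.2 and 43.4 CPM in WT endosperm and 31.4, 34.3 and 30.9 CPM in zb10 (log2 fold change -0.98, SE 0.21, edgeR adjusted p = 0.525; DESeq2 adjusted p = 0.00072). Both had every WT library above every zb10 library. Zm00001d052194, high in leaf, was at 20.3, 11.3 and 13.5 CPM in WT endosperm and 7.24, 8.10 and 6.58 CPM in zb10. Its log2 fold change was -1.04 (SE 0.20, edgeR adjusted p = 0.445, DESeq2 adjusted p = 0.0028). Leaf-enriched IDs held 0.347% to 0.434% of counts in the WT and 0.374% to 0.443% in the zb10 endosperm libraries, ranges that overlap.

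The fifth, Zm00001d001900, went the other way, at 13.2, 9.10 and 8.99 CPM in WT endosperm and 12.1, 25.7 and 25.8 CPM in zb10 (log2 fold change 1.04, SE 0.29, edgeR adjusted p = 0.701; DESeq2 adjusted p = 0.046). Its groups overlapped. In the V4 white section it was at 10.9, 12.6 and 14.0 CPM, within the range of its endosperm values, and in WT V4 leaf at 0.563, 0.789 and 0.509 CPM. Over the 12 alternatives, the highest adjusted p of the 5 members ran from 0.793 to 1.

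**Figure D4:**
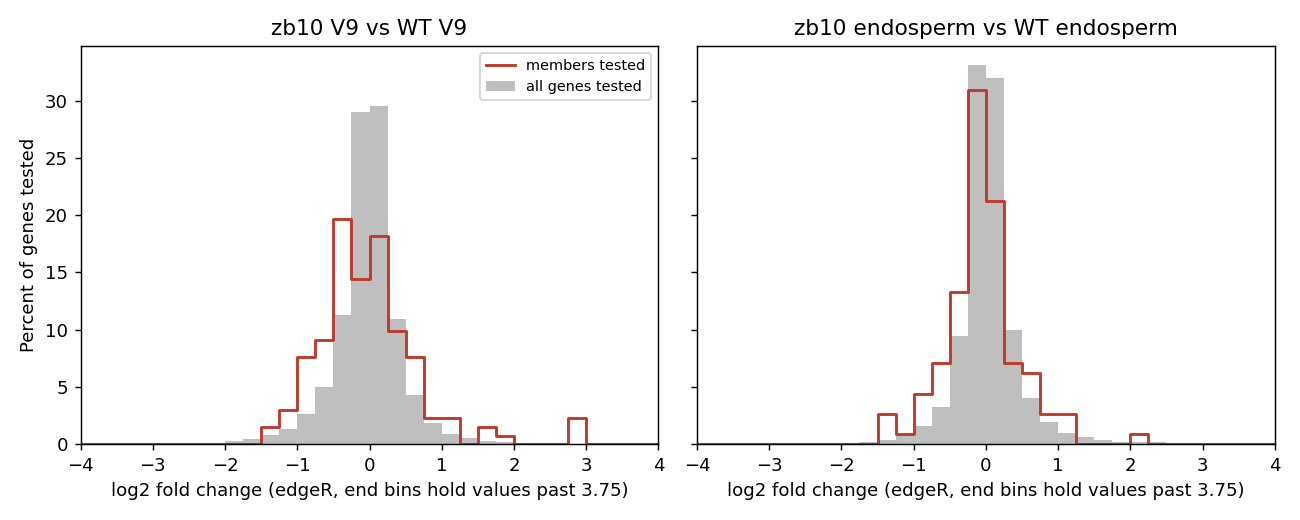
Log2 fold change of zb10 over WT in V9 leaf (left) and endosperm (right), as percent of the members tested (red line; 132 and 113) and of all genes tested (grey bars). The members centre near 0 in both panels (medians -0.08 and -0.07) and spread more widely than all genes. All genes were not matched to the members by level, so the wider spread is not read as a trait of the members.

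The mutant effect on the members was not shown to differ between the tissues. With V9 and endosperm in 1 edgeR quasi-likelihood fit, the endosperm effect minus the V9 effect passed for 0 of 142 members tested (9 at an unadjusted p under 0.05, or 6.34% beside 7.66% of all genes), and for 0.0392% of all genes (0.00979% higher and 0.0294% lower in endosperm). Members that reached 10 CPM in both tissues had a median log2 fold change of -0.22 at V9. The median was -0.22 for those of V9 leaf alone, 0.16 for those of endosperm alone and -0.06 for the rest. In endosperm the same medians were -0.14, -0.11, -0.07 and 0.05.

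Tissue calls were common among the members, as among all genes. Between WT endosperm and WT V9 leaf, 113 of 135 tested members differed, 50 higher and 63 lower in endosperm (37% and 46.7% of those tested), where 76.5% of all genes were called, 37.5% higher and 39% lower (edgeR quasi-likelihood test with Benjamini-Hochberg adjustment). In the zb10 libraries 115 of 138 differed, 52 higher and 63 lower (37.7% and 45.7%), beside 75.1% of all genes, 36.4% higher and 38.7% lower. These contrasts share no library. Of the 133 members tested in both, 46 were higher and 56 lower in endosperm in both, with 0 called in opposite directions. How many of all genes were called alike in both was not counted, so this is not read as a trait of the members. Within each contrast, the member shares called higher were near those of all genes. Those called lower were above them, a difference that was not tested. Scaling by library size alone moved the median of all genes from -0.02 to -0.30 in WT and from -0.05 to -0.35 in zb10, and the member counts to 45 higher and 65 lower and to 44 and 67.

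Among members called in both genotypes with a WT mean of at least 10 CPM in the higher tissue, those of largest WT fold change are named. Zea_mays_newGene_15298 and Zm00001d042263 were higher in endosperm. The first was at 14.9, 14.2 and 20.1 CPM in WT endosperm and at 0.0894, 0.0616 and 0.0714 CPM in WT V9 leaf (log2 fold change 7.95, SE 0.29, edgeR adjusted p = 1e-06). The second was at 394, 312 and 368 CPM in WT endosperm and at 2.94, 2.99 and 2.74 CPM in WT V9 leaf (log2 fold change 7.24, SE 0.18, edgeR adjusted p = 5.9e-07). In the white section they were at 292, 276 and 335 CPM and at 13.1, 15.1 and 20.9 CPM, above every other leaf library.

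Higher in V9 leaf were Zm00001d009084 and Zm00001d042260. Zm00001d009084 was at 106, 41.1 and 59.5 CPM in WT V9 leaf and at 0, 0 and 0.0466 CPM in WT endosperm. Zm00001d042260 was at 23.5, 7.02 and 16.9 CPM in WT V9 leaf and at 0, 0 and 0.0466 CPM in WT endosperm. Both were called in each genotype (edgeR adjusted p from 4.7e-06 to 0.00037); with so few endosperm counts their fitted folds depend on the prior count and are not given.

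**Figure D5:**
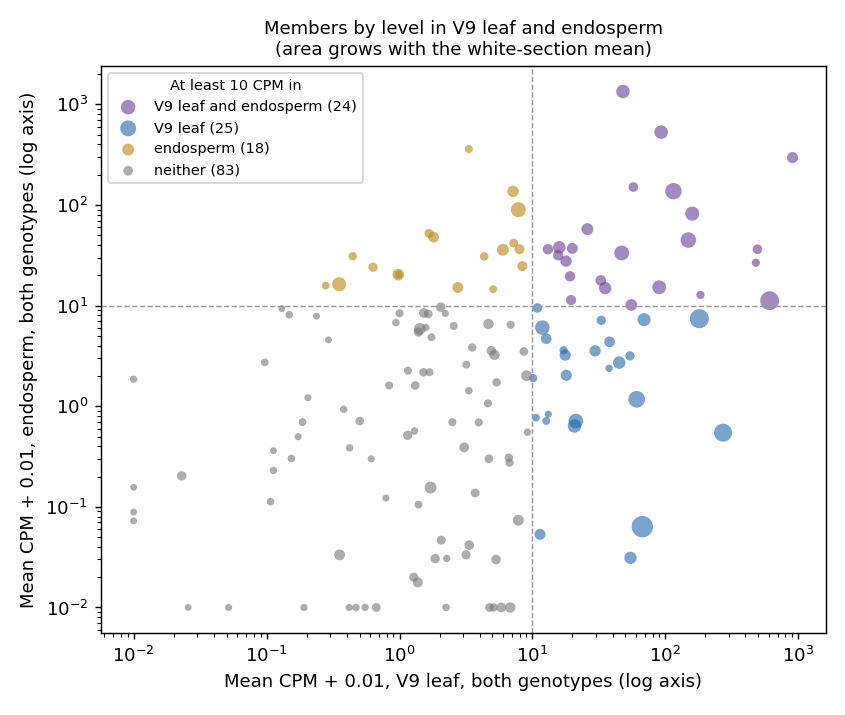
Mean CPM of each member in V9 leaf against endosperm, over both genotypes, on log axes with 0.01 added; colour gives the level group, dashed lines its 10 CPM limit, and point area the V4 white-section mean. The 24, 25, 18 and 83 members of the 4 groups fill all quadrants, with no single tissue profile among them.

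Endosperm-enriched IDs were a larger part of the members than of other IDs in the white section. Of the 150, 11 (7.33%) were endosperm-enriched and 13 (8.67%) leaf-enriched, beside 0.697% and 12.2% of the 16501 IDs at or above the lowest member in the white section. WT V4 leaf counts low beside the white section were a condition for membership. Leaf counts low beside endosperm are part of being endosperm-enriched, so the shares are a description. Without the members, endosperm-enriched IDs held 0.318%, 0.255% and 0.369% of counts in the white libraries, 0.274% to 0.293% in WT V4 leaf and 0.241% to 0.290% in the green section, ranges that overlap.

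In the V4 white section itself, whose values chose the list, the members held 1.61 ± 0.337% of all counts (SD, n = 3), beside 0.162 ± 0.026% in the green section and 0.136 ± 0.00759% in WT. The medians of the member means were 31.0 CPM in the white section, 2.20 in the green section and 1.99 in WT. Every white library was above every WT and green library for all 150 members. The choice of members favoured this and the share over all IDs was not counted, so nothing is read from it. For 114 members every white library was also above each of the other 18 libraries of the series, or 76% beside 13% of the 16501 IDs; the rule fixed part of this. In bulk tissue, a higher level per cell cannot be told apart from more cells that hold the transcript.

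The edgeR fit called all 150 in white against WT (background 31.5%, with 16.6% higher and 14.9% lower) and in white against green (24.4%, with 13.5% higher and 10.9% lower); these values chose the members, so the counts show nothing about them. The highest score belonged to Zm00001d028750, at 142, 94.7 and 179 CPM in the white section, at most 0.362 CPM in any green library and at most 0.537 CPM in any WT V4 library. In V9 leaf it was at 4.27, 0 and 2.16 CPM in WT and 1.09, 1.82 and 0.884 CPM in zb10, so no other group came near the white section.

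The next was Zea_mays_newGene_15298, described above for endosperm, which was at 0.527, 2.83 and 5.44 CPM in the green section and 0.214, 0.225 and 0.0565 CPM in WT V4 leaf. Zm00001d042209, next in score, was at 89.1, 83.7 and 94.7 CPM in the white section, 0.988, 0.481 and 1.75 CPM in the green section, and 0.295, 0.338 and 0.452 CPM in WT. It had 0 counts in the WT endosperm libraries, where the limit that a count of 0 allows is 0.0699 to 0.0898 CPM. The fourth score was that of Zm00001d052194, whose white and V9 leaf values are given above.

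At the edge of the list, Zea_mays_newGene_21127, Zm00001d005795 and Zm00001d009084 were just inside, with scores of 2.18. Zm00001d045369, Zm00001d042739 and Zm00001d049529 were just outside, with scores of 2.17, 2.17 and 2.16. Their white-section means, 6.76, 71.4 and 165 CPM inside and 4.05, 70.8 and 17.7 CPM outside, cover similar ranges, so the list ends within a continuous run of scores.

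White libraries differed among themselves. Replicate 3 was the highest for 127 members, replicate 2 for 18 and replicate 1 for 5. Replicate 3 was also highest for 65.8% of the 16501 IDs at or above the lowest member in the white section, and its leaf-enriched share was the lowest, as given above; the part of these shifts in the members' values was not tested. Without white replicate 3 the rule kept 137 of the 150. The median ratio of the highest to the lowest white library was 1.52, and 27 members exceeded a ratio of 2.

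The widest white spreads, picked after the values were seen, were in Zm00001d024669, at 70.7, 7.21 and 44.2 CPM, and Zm00001d024903, at 10.3, 39.0 and 97.9 CPM. Zm00001d024903 also varied in WT V9 leaf, at 857, 108 and 858 CPM, and in zb10 V9 leaf, at 606, 157 and 368 CPM. For these members a mean stands for libraries that differ several-fold.

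Green section and WT were both held below the white section by the choice. The green mean was above the WT mean for 112 members and below it for 38. That is 74.7% above, beside 51.7% of the 21813 IDs with a V4 mean of at least 1 CPM. The median log2 ratio was 0.19 with 1 CPM added, beside 0.01 over those IDs, and the median fitted log2 fold change was 0.30, beside 0.01 over all genes. Among the 96 members with a mean of at least 1 CPM over green and WT, libraries did not overlap for 25 above and 4 below WT, or 26% and 4.17%, beside 10.5% and 10.3% of all IDs at that level. The edgeR fit called 7 members, all higher in green (background 0.763%, with 0.417% higher and 0.346% lower), and 49 had an unadjusted p under 0.05, 45 of them higher, beside 12.6% of all genes. Both groups entered the score, and the white libraries carried members through the count filter (132 passed on green and WT alone), so nothing is read from these counts.

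Among those 7, named after their values were seen, were Zm00001d049244 and Zm00001d008214, described above for V9, and Zm00001d011420. The last was at 0 counts in every WT leaf library of both stages, at 1.25, 0.820 and 1.203 CPM in the green section and at 42.4, 45.2 and 38.2 CPM in the white section. At V9 its zb10 libraries held 0, 0 and 0.078 CPM, so it was near 0 in the older mutant leaf. Zm00001d007827, also among the 7, was at 1784, 2116 and 1912 CPM in the white section, 261, 326 and 297 CPM in the green section and 168, 143 and 167 CPM in WT. At V9 it was at 103, 41.1 and 48.8 CPM in WT and 141, 18.8 and 49.1 CPM in zb10, which overlapped.

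Green replicate 3 was the highest green library for 109 members (72.7%). It was also the highest for 54.0% of the IDs with green counts at or above the lowest member in the white section. White replicate 3 was likewise most often the highest white library, as given above. Same-numbered libraries from both sections deviated together across 21869 IDs (r = 0.22, 0.19 and 0.44 for replicates 1, 2 and 3, descriptions across genes that share libraries). Both sections' libraries of number 3 also had the lowest leaf-enriched share of their group, at 31.6% and 40.1%.

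Some members have neighbouring ID numbers. In 9 pairs, made of 18 members, the numbers were 10 or fewer apart, and 4 pairs fell in the same level group; whether numbers follow genome order is not stated in the files. Zm00001d039132 and Zm00001d039133 kept the same ratio of mean CPM in all 7 groups, from 2.90 to 3.20, at 22.7 and 72.7 CPM in the white section and 1.37 and 4.30 CPM in WT V9 leaf. How the counting treated reads shared by near-identical or overlapping IDs is not given, so this pair may not be 2 independent members. Zm00001d042260 and Zm00001d042263 did the opposite outside the white section: the first was counted in V9 leaf and at 0.214 CPM or less in every endosperm library, and the second was highest in endosperm.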

How the data were processed

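Whole-number counts per gene ID, deposited by the authors in 1 table of 21 libraries, were used; per the labels' protocols, RNA came from an RNeasy kit and libraries from a SMARTER mRNA-Seq kit. The aligner, counter and genome build: not given in the sources used here. Table headers name the mutant zb9 and the younger leaf 3L; each header was assigned to the one group its remaining words allow. The members, the level groups and the lists were chosen with earlier results of these data known.

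CPM used column totals of 28237880 to 123050963 counts. Tests used edgeR 4.0.16 in R 4.3.3 (TMM, glmQLFit and glmQLFTest after filterByExpr at its default count of 10 and total of 15, with Benjamini-Hochberg over all tested genes, adjusted p under 0.05), with V9 and endosperm fitted apart, each tissue contrast on its own 6 libraries, and V4 groups together. SEs are those implied by the F-test. Fits were also run on simulated counts, with the outcome not given here, so no power is stated for the V9 and endosperm tests. The p-values set each difference against the spread between libraries. The limit for a count of 0 (3 counts) covers counting error only. DESeq2 1.42.0, other scalings, filters, fits and left-out libraries were alternatives.

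Planned lists by gene description, promoter motifs and markers could not be applied, since no ID was named. The fallback was 4 top scores and up to 2 members per direction and comparison; others named were chosen after their values were seen. Replicate numbers paired white with green sections (correlations of 0.22, 0.19 and 0.44), from the data and not the labels.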

Additional observations from a re-analysis of the deposited data

How the results depend on the processing

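The member list kept 137 to 149 of its 150 members on leaving out each V4 library, 109 with a pseudocount of 5 CPM and 91 with 0.1 CPM, which favours IDs near 0 in WT. At V9 the count of 0 members became 1 with all 21 libraries in the fit, 3 with DESeq2 and 0 to 1 on leaving out each library; all genes called there numbered 12, and 23 with no filter, 63 with all 21 libraries, 230 with DESeq2 and 5 to 146 on leaving out each library (146 without WT replicate 2). In endosperm the 0 members stayed 0 on leaving out each library and became 5 with DESeq2; all genes called numbered 9, and 27 with no filter, 15 with all 21 libraries, 115 with DESeq2 and 0 to 13 on leaving out each library (0 without WT replicate 3). The replicate block, in which V9 and endosperm numbers share only a number, left 0 members in both and 3 genes in all at V9 and 3 in endosperm. For green against WT, 7 members became 11 with no filter, 4 with all 21 libraries, 27 with DESeq2, 5 with the replicate block and 2 to 8 on leaving out each library. All genes called there numbered 205, and 287 with no filter, 75 with all 21 libraries, 880 with DESeq2 and 120 with the replicate block. They ranged from 40 to 269 on leaving out each library. Both groups entered the score, so nothing is read from these member counts. Tissue calls of members ranged from 106 to 122 in WT and 105 to 113 in zb10 on leaving out each library. Those of all genes ranged from 20751 to 22949 and from 20471 to 21423. On leaving out each library, members called in white against WT ranged from 148 to 150, and against green they stayed at 150. All genes called in these contrasts ranged from 6016 to 8366 and from 4919 to 5782. The V4 values chose the members, so their stable counts were built in and nothing is read from them. Scaling by library size alone moved the all-gene median of white against WT from 0.00 to 0.14. For the 9 single-member fold changes given with alternatives, 0 changed sign. They were named because an alternative fit called them, so a stable sign was favoured by that choice. For Zm00001d015091 that fit left out WT V9 replicate 2. The cause of the shifts between settings was not tested. Members under the count filter, 18 at V9 and 37 in endosperm, were not tested at these counts.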
